A study of Arabidopsis thaliana and Zea mays with 36 samples.

Results

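Among the circular RNAs (circRNAs) deposited for Arabidopsis thaliana leaves, 688 of 1354 came from the nuclear chromosomes and from a host gene that gave no other circRNA in the table. They were chosen by position and host annotation alone: a location on chromosomes 1 to 5, exactly 1 named host gene, and a host that occurs in exactly 1 row. No expression value entered the choice, but a row exists only where a circRNA was listed in at least 1 library. Of the rest, 390 came from 160 nuclear hosts with several circRNAs, 73 were intergenic, 4 had 2 hosts and 199 lay in organelle genomes. The hosts just outside the choice are the 113 genes with 2 circRNAs, which gave 226 circRNAs.

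A circRNA forms by back-splicing, in which the splicing machinery joins a downstream splice donor to an upstream acceptor of the same precursor, so that the exon or exons between them close on themselves. The ring has no free end and resists exonucleases that degrade linear RNA. A host gene can give both its ordinary linear RNA and rings, and rings are usually the minor product. In leaves, drought lowers the RNAs of photosynthesis and raises those of dehydration proteins and of signalling by abscisic acid (ABA), the hormone that closes stomata.

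The plants were of the ecotype Col-0, grown with 16 h of light a day, and water was rationed from 21 days after planting. The drought groups DT2, DT3, DT4 and DT5 are numbered levels, DT5 being the highest, and WW was the well-watered group; the sources used here do not give the soil moisture behind each level. Each group had 2 libraries of circRNA, made from RNA digested with the exonuclease RNase R, and 2 libraries of linear RNA from the same RNA samples without that digestion. Each library was made from the pooled leaves of 4 plants and is called a biological replicate by the submitters, so a group is 2 pools, and pools do not show how single plants vary.

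Linear RNA was deposited in TPM (relative transcript abundance, corrected for length), and circRNA as a signal scaled per library whose unit no source used here names. Within a library all circRNA values fell on an even ladder, with rungs (steps) 11.8 to 16.3 units apart and a tolerance of 0.02 of a step, and the lowest nonzero value stood on rung 2. The 688 circRNAs held 2008 to 3480 steps per library, of 6549 to 10695 over all circRNAs. A 0 was shared by both libraries of a group in all but 1 case (2111 shared zeros against 1 single zero, in WW), so a circRNA was either listed in a group or not. A value of 0 is therefore written here as not listed, which is not the same as absent.

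Most of these circRNAs were exonic and short. By the deposited annotation 679 were of the exon type and 9 of the intron type. The length, which is the end minus the start of the location and includes any intron between, ran from 137 to 2040 bp with a median of 413 bp (quartiles 283 and 609 bp). Of the 688, 196 were under 300 bp and 45 were 1000 bp or longer, 6.54% of them. The 390 circRNAs of hosts with several had a median of 480.5 bp (quartiles 325 and 774 bp), reached 4551 bp, and were 1000 bp or longer in 13.3%. The 226 circRNAs of hosts with exactly 2 had a median of 477 bp. The 9 intronic circRNAs were all within 176 to 512 bp. Between length and the number of groups that listed a circRNA, Pearson r was -0.01 and Spearman rho -0.06 over the 688, given as a description since the circRNAs share libraries.

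**Figure D1:**
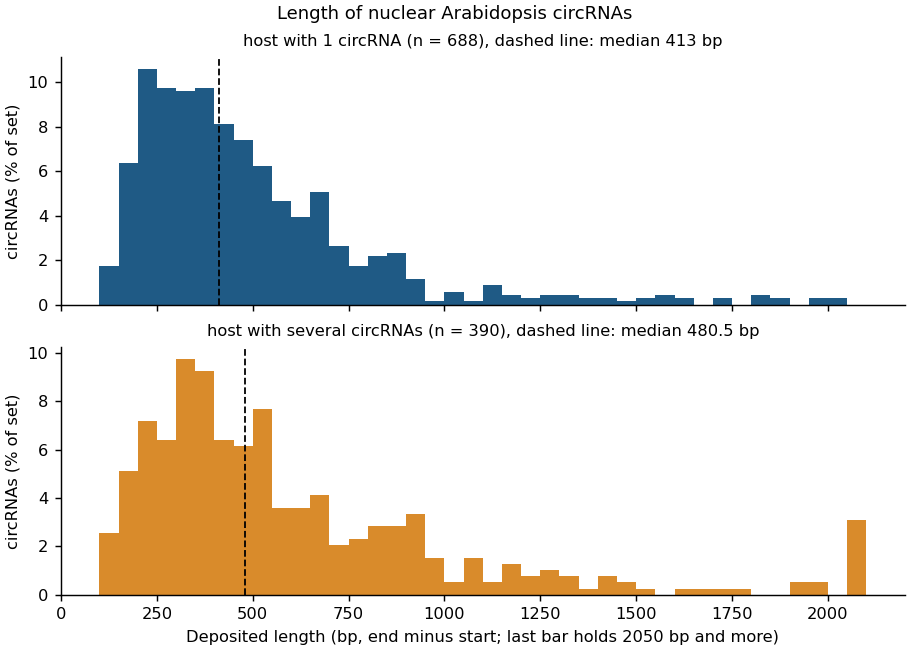
Histograms of deposited length in bp (horizontal axis) against the percentage of each set (vertical axis, bins of equal width), for the 688 circRNAs of hosts with 1 circRNA (top) and the 390 of hosts with several (bottom). The median is 413 bp in the top panel and 480.5 bp in the bottom panel, where the last bar holds the longest ones.

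The shortest circRNA was that of AT1G14670 (build TAIR10, chr1:5038911-5039048, plus strand, 137 bp, exonic), listed only in DT4 at 94.3 and 79.6 units. Next came the circRNA of ARK2 (AT1G01950, an armadillo-repeat kinesin; 143 bp), listed in WW, DT3 and DT5 at 28.6 to 138 units, and that of AT3G26950 (144 bp), listed only in DT5 at 32.7 and 27.4 units. The longest was that of SOS4 (AT5G37850, pyridoxal kinase; chr5:15065605-15067645, plus strand, 2040 bp). It stood at 49.0 and 27.4 units in DT5 and at 100.007 and 46.1 units in WW, and was not listed in the other 3 groups. The 2036 bp circRNA of AT1G61240 was listed in WW and DT2 only. The 1999 bp circRNA of ATLIG4 (AT5G57160, DNA ligase IV, an enzyme of double-strand break repair) was listed at 138 to 220 units in WW, DT2, DT3 and DT4, and was not listed in DT5. Both the shortest and the longest circRNAs thus included ones seen in a single group or a pair of groups.

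Most of the 688 circRNAs were seen in few groups. WW listed 269 of them, DT2 239, DT3 245, DT4 294 and DT5 281. A single group listed 380 circRNAs, or 55.2%, against 45.4% of the circRNAs of hosts with several. Of these 380, 89 were in WW alone, 60 in DT2 alone, 55 in DT3 alone, 83 in DT4 alone and 93 in DT5 alone. A further 125 were listed in 2 groups, 79 in 3, 59 in 4 and 45 in all 5. All 4 drought groups without WW listed 17, and DT4 with DT5 alone listed 25. DT5 and WW shared 106, which is 37.7% of the DT5 list and 39.4% of the WW list; over all circRNAs the shared ones were 39.4% of the DT5 list and 44.8% of the WW list. DT3 and DT2 shared 118, which is 48.2% of the DT3 list and 49.4% of the DT2 list, against 52.0% and 50% over all circRNAs.

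**Figure D2:**
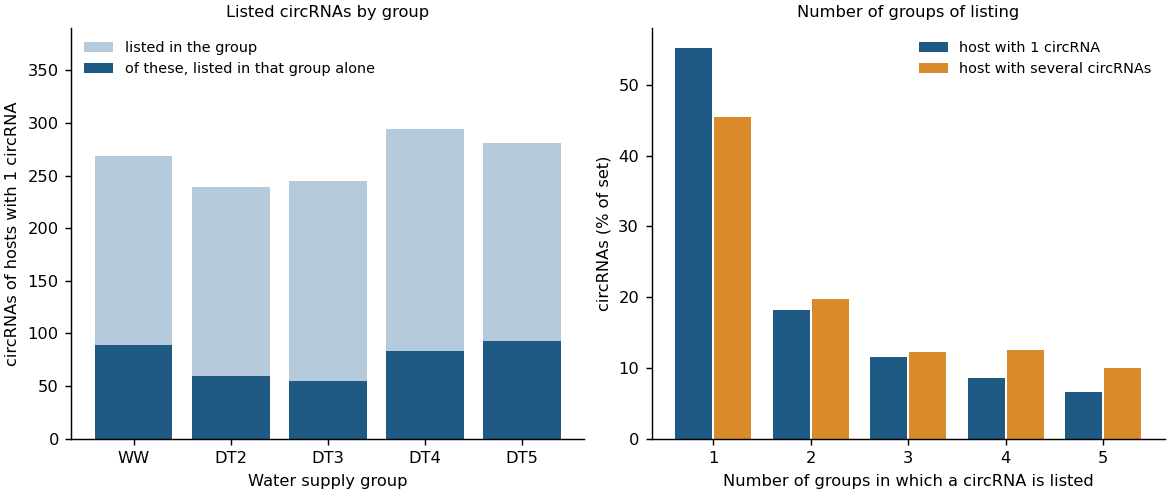
Left, the number of the 688 circRNAs listed in each group (light bars) and the part of them listed in that group alone (dark bars). Right, the percentage of circRNAs listed in 1 to 5 groups, for hosts with 1 circRNA and for hosts with several; the left-most pair is 55.2% and 45.4%.

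Many of the listed values were low. Of the 2657 listed values, 1062 (40.0%) were 2 or 3 steps and 401 (15.1%) were 10 steps or more; for hosts with several circRNAs these shares were 33.5% and 21.9%. Between the 2 libraries of a group, 24.1% to 29.0% of the listed circRNAs differed by more than 2-fold. The Pearson correlation of their log2 values was 0.65 to 0.74. Some absences nevertheless stood beside high values. Of the circRNAs that had at least 5 steps in every library where they were listed, 23 were not listed in 1, 2 or 3 groups.

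The clearest such case was the circRNA of AT4G07390 (chr4:4196362-4197112, plus strand, 750 bp, exonic). It had 4157 and 3362 units in WW, 5957 and 5421 in DT3, 5976 and 6194 in DT4, and 6730 and 4751 in DT5, and was 0 in both DT2 libraries. The linear RNA of this host was 37.6 and 34.4 TPM in DT2, above the 26.0 and 27.4 TPM of WW. The circRNA of NLP7 (AT4G24020, a transcription factor of nitrate signalling) was not listed in DT4 only, and had at least 15 steps in every other library. The circRNA of NRAMP1 (AT1G80830, a metal transporter) was not listed in WW only and had at least 8 steps elsewhere. The reason for such gaps was not tested, so a change from listed to not listed carries no fold change here.

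A few circRNAs carried much of the signal. The circRNA of AT5G04090 (chr5:1106879-1107381, minus strand, 502 bp, exonic) had 10215 and 8182 units in WW, 9742 and 9327 in DT2, 10955 and 10110 in DT3, 13024 and 11593 in DT4, and 17511 and 11432 in DT5. It alone made up 24.1% to 33.6% of the summed signal of the 688 circRNAs. Its linear host RNA stood at 38.2 and 32.8 TPM in DT5 and at 20.3 and 14.6 TPM in WW. The circRNA changed by 0.63 on the log2 scale between DT5 and WW (SE 0.42, 95% interval -0.20 to 1.46, adjusted p = 0.495 by limma), which is not past the threshold of 0.05. With the circRNA of AT4G07390 it held 31.4% to 46.3% of the signal. The next highest circRNA value was 1029 units, and the median listed value was 53.0 to 81.7 units.

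**Figure D3:**
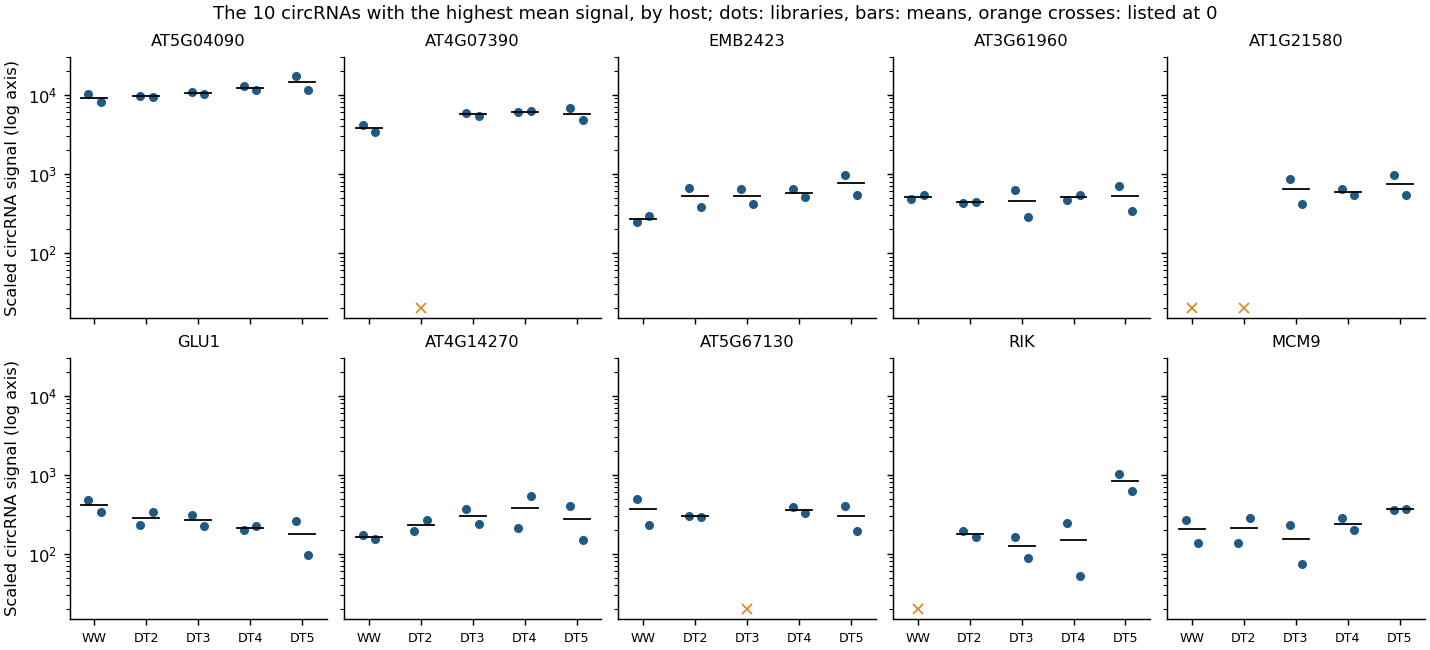
Scaled signal (log axis) of the 10 circRNAs with the highest mean over the 10 libraries, by host and group. Dots are libraries, bars are means of 2 libraries, and orange crosses at the foot mark groups in which a circRNA was not listed; AT5G04090 and AT4G07390 stand well above the other 8.

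Of the next 8 by mean signal, 5 were listed in every group. The circRNA of EMB2423 (AT3G48470, named for an embryo-defective mutant; chr3:17953266-17954439, plus strand, 1173 bp, exonic) is described with the tested changes. The circRNA of AT3G61960 (258 bp) had 284 to 702 units over the 10 libraries, and no group stood apart. The circRNA of GLU1 (AT5G04140, ferredoxin-dependent glutamate synthase, which reassimilates ammonium in leaves; 494 bp) had 261 and 95.8 units in DT5 and 486 and 338 in WW. That of AT4G14270 (280 bp) had 408 and 151 units in DT5 and 171 and 153 in WW. MCM9 (AT2G14050, of the minichromosome maintenance helicase family; 1204 bp) had a circRNA with 359 and 370 units in DT5 and 271 and 138 in WW.

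The remaining 3 had gaps. The circRNA of AT1G21580 (chr1:7558475-7560288, minus strand, 1813 bp) was not listed in WW and DT2 and had 851 and 418 units in DT3, 636 and 544 in DT4, and 964 and 534 in DT5. The circRNA of RIK (AT3G29390, a protein with a KH RNA-binding domain; chr3:11289661-11291634, plus strand, 1973 bp) was not listed in WW. It had 193 and 163 units in DT2, 162 and 89.6 in DT3, 248 and 53.1 in DT4, and 1029 and 616 in DT5, and both DT5 libraries were above all others. The RIK linear RNA was 41.2 and 40.1 TPM in DT5 and 25.0 and 27.1 TPM in WW. The circRNA of AT5G67130 (223 bp) was not listed in DT3 only, with 192 to 500 units in the other groups. Among the 9 intronic circRNAs only that of AT5G38210 (chr5:15262271-15262561, minus strand, 290 bp) was listed in all 5 groups, with 70.7 to 371 units.

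The share of the nuclear circRNA signal held by these 688 was 45.6% ± 2.87 in the drought libraries (SD, n = 8) and 48.0% ± 0.364 in the WW libraries (SD, n = 2). The difference of -2.40 percentage points was not past the threshold (two-sided exact permutation test over 45 arrangements of the libraries, p = 0.311, where the smallest possible is 0.0222). The share was lowest in the DT2 libraries, 44.1% and 40.1%, where the circRNA of AT4G07390 was not listed. As a share of the signal of nuclear circRNAs with exactly 1 host gene it was 64.3% ± 2.92 in drought (SD, n = 8) and 64.8% ± 1.38 in WW (SD, n = 2), a difference of -0.43 percentage points (exact permutation p = 0.911). Both tests treat each library as a separate unit. The 8 drought libraries are 4 groups whose 2 libraries share their zeros, so the SDs and p-values do not measure the spread between groups. Counted among the listed nuclear circRNAs, where both libraries of a group give the same value, these circRNAs made up 52.6% in DT2, 56.8% in DT3, 56.1% in DT4 and 53.8% in DT5, and 57.6% in WW. All 4 drought values were below the single WW value, and 5 group values cannot give a p below 0.2.

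Whether a circRNA changed with drought was tested for those listed in both libraries of both groups, 111 of the 688 in DT2, 111 in DT3, 121 in DT4 and 106 in DT5. The test was limma on log2 signal with Benjamini-Hochberg adjustment over all Arabidopsis circRNAs listed in both groups, and its spread is pooled over circRNAs. In DT2 none of the 111 was called higher (0% of all 248 tested) and none lower (0%), with 1 higher and 4 lower at an unadjusted p under 0.05. In DT3 none was called higher (0% of all 235) and none lower (0%), with 2 and 9 unadjusted. In DT4 none was called higher (0% of all 259), with 5 unadjusted, and 1 was called lower (0.386%). In DT5 2 were called higher (1.27% of all 236) and 1 lower (1.27%). The median change of the tested circRNAs lay between -0.14 and 0.01 in the 4 comparisons, and the median SE of a change was 0.72 to 0.74, so a typical 95% interval reached 1.405 to 1.442 log2 units to either side.

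PPL1 (AT3G55330, a PsbP-like protein of the chloroplast that takes part in repair of photosystem II) gave the circRNA called lower in both DT4 and DT5. This circRNA (chr3:20514580-20514863, minus strand, 283 bp, exonic) had 94.3 and 133 units in DT4 and 98.01 and 123 units in DT5, against 643 and 507 units in WW, and was not listed in DT2 and DT3. It changed by -2.35 in DT4 (SE 0.55, adjusted p = 0.00443) and by -2.38 in DT5 (SE 0.55, adjusted p = 0.00164). Its linear host RNA was 14.6 and 15.9 TPM in DT5 against 152 and 141 TPM in WW, a change of -3.18 on the log2(TPM + 1) scale (SE 0.14, adjusted p = 5.54e-08). The 2 comparisons share the WW libraries. Without WW library 1 the change was -2.18 in DT4 (adjusted p = 0.398) and -2.205 in DT5 (0.139). Without WW library 2 it was -2.52 in DT4 (0.160) and -2.549 in DT5 (0.0509), and without DT4 library 1 it was -2.105 in DT4 (0.147), so the size held while the adjusted p did not.

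The circRNA of AT1G23440 (chr1:8323451-8324050, plus strand, 599 bp, exonic) was called higher in DT5. It had 261 and 301 units in DT5 and 57.1 and 30.7 units in WW, with 68.8 to 271 units in DT2 and DT4 and 108 and 59.7 in DT3. The 30.7 units are the lowest nonzero value of WW library 2, so the size of the DT5 change rests partly on a value at the floor. The DT5 change was 2.74 (SE 0.65, adjusted p = 0.00185), and without WW library 2, the lowest, it was 2.296 with an adjusted p of 0.195. The circRNA of EMB2423 was also called higher in DT5, with 980 and 534 units in DT5 and 243 and 292 units in WW. Its libraries in DT2, DT3 and DT4 lay between 384 and 660 units, so all 8 drought libraries were above both WW libraries. The DT5 change was 1.44 (SE 0.45, adjusted p = 0.0477), with 1.31 without WW library 1 (adjusted p = 0.345), 1.575 without WW library 2 (0.246) and 1.004 without DT5 library 1 (0.424). Without a mean-variance trend the adjusted p of EMB2423 was 0.174. None of these calls in DT4 and DT5 held when the libraries were centred on their median (adjusted p = 0.121 to 0.239), while the direction of each was the same.

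The hosts of these circRNAs had higher median levels than all genes tested. All 688 matched a RefSeq gene and 682 were protein coding; 683 were in the linear RNA table and 681 passed the filter of 1 TPM in at least 2 libraries. Their median level was 32.2 TPM in DT2, 34.9 in DT3, 39.4 in DT4 and 35.045 in DT5, and 28.4 TPM in WW. Over all 18938 genes tested it was 14.2, 15.4, 17.3 and 15.01 TPM in the drought groups and 12.6 TPM in WW. Hosts with several circRNAs had higher medians, 49.7 TPM in DT5 and 41.2 TPM in WW. When all tested genes were split into 5 equal bins by mean TPM, the share that hosted a single circRNA was higher in each next bin, 0.528%, 1.69%, 3.43%, 5.07% and 7.26%, against 3.60% of all. The share that hosted several circRNAs rose too, 0%, 0.264%, 0.660%, 0.898% and 2.24%, against 0.813% of all. By chromosome the share that hosted a single circRNA was close to even, between 3.41% (chromosome 2) and 4.01% (chromosome 4).

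Where a circRNA was listed, its signal was close to unrelated to the level of its host. Signals below the lowest listed values are missing here, and 40.0% of the listed values were 2 or 3 steps. The rise over the bins of TPM concerns which genes had a listed circRNA, not its signal. Across 683 circRNAs the mean signal where listed and the mean host TPM had a Pearson r of -0.01 and a Spearman rho of 0.01, given as a description, since a ring is not scaled by length and TPM is. The median host TPM was 35.4 for circRNAs listed in 1 group, 37.95 in 2, 41.1 in 3, 37.5 in 4 and 34.5 in all 5. MCM9 is an example: its linear RNA was 1.96 to 5.21 TPM in every library, while its circRNA was among the 10 strongest. RCA (AT2G39730, rubisco activase) is the reverse, with 9740 and 9666 TPM of linear RNA in WW and a circRNA listed in DT2 only, at 27.5 and 29.6 units.

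The linear RNAs of the hosts changed mainly in DT4 and DT5. In DT2 9 of 681 hosts were called higher (1.47% of all genes) and 4 lower (0.412% of all genes). In DT3 142 were higher (14.5% of all genes) and 22 lower (2.22%). In DT4 382 were higher (48.3%) and 124 lower (16.4%), and in DT5 324 were higher (43.4%) and 204 lower (28.1%). As shares of the hosts these are 20.9% and 3.23% in DT3, 56.1% and 18.2% in DT4, and 47.6% and 30.0% in DT5. The split depends on scaling, because the median of all genes was 0.12, 0.22, 0.41 and 0.26 in DT2, DT3, DT4 and DT5, and rescaling the libraries by a trimmed mean shifted it by -0.12, -0.22, -0.42 and -0.25. After rescaling the hosts higher and lower were 3 and 8 in DT2, 50 and 71 in DT3, 195 and 223 in DT4, and 264 and 256 in DT5. The median change of the hosts was 0.03, 0.04, 0.07 and 0.04 above that of all genes in the 4 comparisons.

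The 5 largest host rises and the 5 largest falls in DT5 were each called in 8 of 8 alternatives. RAB18 (AT5G66400, a dehydrin) rose by 10.66 (SE 0.28), with 35410 and 39236 TPM in DT5 and 21.2 and 22.9 TPM in WW. LTI65 (AT5G52300, an ABA-responsive protein also known as RD29B) rose by 10.34 (SE 0.30), CSLG2 (AT4G24000, of the cellulose synthase-like family) by 7.22 (SE 0.19), AT4G33150 by 6.66 (SE 0.24) and AT2G41190 by 6.58 (SE 0.27). CA1 (AT3G01500, a carbonic anhydrase of the chloroplast) fell by 9.32 (SE 0.51), with 2.62 and 3.84 TPM in DT5 and 2700 and 2635 TPM in WW. GER3 (AT5G20630, a germin-like protein of the cell wall) fell by 7.29 (SE 0.43) and ESM1 (AT3G14210, a modifier of glucosinolate breakdown) by 5.96 (SE 0.32). IMD1 (AT5G14200, isopropylmalate dehydrogenase of leucine and glucosinolate synthesis) fell by 5.70 (SE 0.37) and PTAC16 (AT3G46780, a protein of the plastid chromosome) by 5.67 (SE 0.17). Where one group lies near or below the pseudocount of 1 TPM the size depends on it: with a pseudocount of 0.1 the change was 8.73 for CSLG2 (0.39 and 0.38 TPM in WW) and -9.05 for GER3, and that of LTI65 was larger too.

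The circRNAs of the 5 hosts that rose most were listed in drought only, all of them in DT4 or DT5. Of all 688 circRNAs WW listed 39.1%, so most were listed in drought only. That of CSLG2 (chr4:12463423-12464298, 875 bp) had 294 and 151 units in DT5, 35.4 and 26.5 in DT4, and was not listed in WW. The circRNA of RAB18 (chr5:26518803-26519053, minus strand, 250 bp, exonic) had 141 and 159 units in DT4 and was not listed in DT5, where the linear RNA was highest. It had the highest signal of all circRNAs listed in DT4 alone. Of the 5 hosts that fell most, IMD1 and PTAC16 gave circRNAs listed in WW only, ESM1 one listed in WW, DT2 and DT3, CA1 one listed in DT2 only, and GER3 one listed in all groups but DT2. Among all 688 circRNAs, 89 were in WW alone.

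Host changes in DT5 were set beside the listing of the circRNAs. Of the 175 circRNAs listed in DT5 and not in WW, 172 had a tested host, and 116 of these were higher and 27 lower (67.4% and 15.7%, against 43.4% and 28.1% of all genes tested), with a median host change of 0.75. Of the 163 listed in WW and not in DT5, 162 had a tested host, and 52 were higher and 67 lower (32.1% and 41.4%), with a median of -0.16. The 104 tested hosts of circRNAs listed in both had 52 higher and 28 lower (50% and 26.9%) and a median of 0.26, equal to that of all genes at 0.26. After rescaling, the circRNAs listed in DT5 and not in WW had 98 hosts higher and 33 lower (57.0% and 19.2%), and those listed in WW and not in DT5 had 39 higher and 87 lower (24.1% and 53.7%), against 33.9% and 35.1% of all genes. Relative to the median of all genes, hosts of circRNAs listed in DT5 and not in WW were 0.49 above. Hosts of those listed in WW and not in DT5 were 0.41 below, and hosts of those listed in neither group 0.06 below.

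The medians were nearer to each other at the lower drought levels. In DT4 the median host change, relative to all genes, was 0.19 for circRNAs listed in DT4 and not in WW and -0.19 for those listed in WW and not in DT4. In DT3 these medians were 0.08 and 0.00, and in DT2 they were -0.03 and 0.02. Hosts of circRNAs listed in neither group also stood above all genes in DT4, by 0.14, near the 0.19 of those listed in DT4 only. The comparisons share the WW libraries, and the sets of circRNAs overlap among them. No test was made of these differences between sets of hosts.

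**Figure D4:**
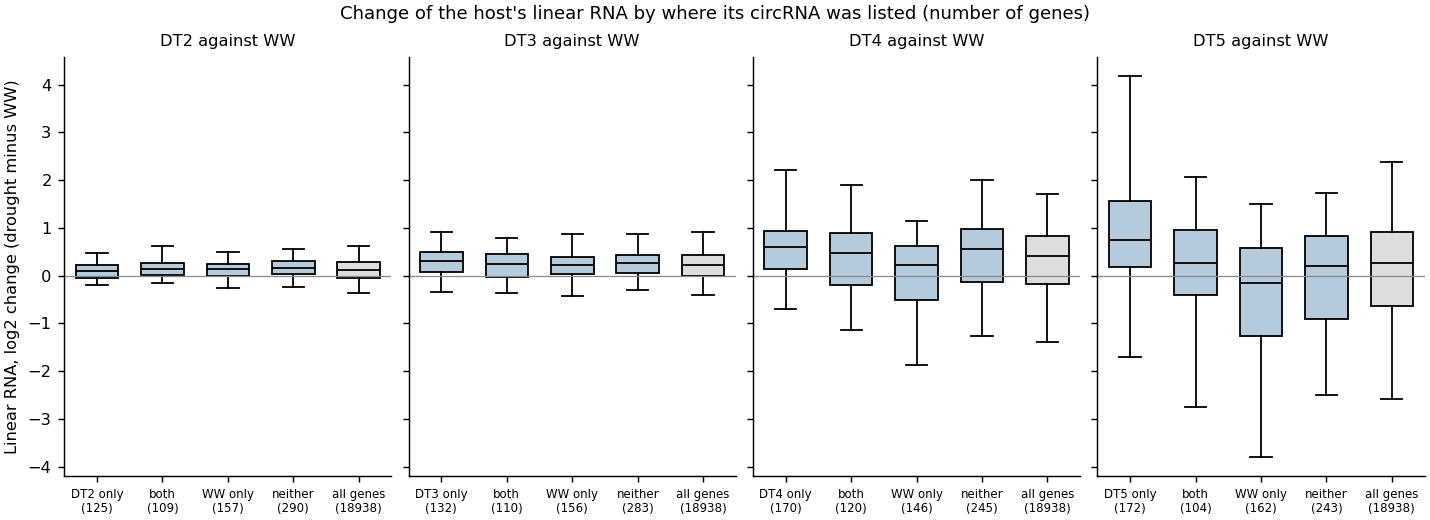
Log2 change of the host's linear RNA (vertical axis, drought minus WW) for circRNAs listed in the drought group only, in both groups, in WW only or in neither, and for all genes tested (grey), in each of 4 comparisons. Boxes span the quartiles with the median, whiskers the 5th to 95th percentiles, and numbers in brackets are genes; the DT5 medians of circRNAs in DT5 only and in WW only are 0.75 and -0.16.

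The strongest circRNA listed in WW alone was that of AT5G59250 (623 bp), with 114 and 92.1 units, and its linear RNA was 26.0 and 20.4 TPM in DT5 against 54.8 and 53.4 TPM in WW. For DT2 alone it was that of AT3G04650 (209 bp), with 55.0 and 163 units, and for DT3 alone that of AT5G15810 (527 bp), with 94.6 and 59.7 units. For DT5 alone it was that of CM1 (AT3G29200, chorismate mutase, at the start of phenylalanine and tyrosine synthesis; chr3:11165463-11165846, minus strand, 383 bp), with 114 and 151 units. The CM1 linear RNA was 38.1 and 46.8 TPM in DT5 and 31.8 and 31.7 TPM in WW.

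Hosts from 3 gene lists were looked up among the 688. The lists were drawn up from textbook knowledge with earlier results of these data known. Among all tested genes 3.60% hosted a single circRNA, and 7.26% did in the highest of the 5 bins by mean TPM. Of 36 genes of dehydration and ABA signalling, 6 hosted a single circRNA, and none of these 6 was listed in WW, DT2 or DT3. Among all 688 circRNAs, 83 were listed in DT4 alone, 93 in DT5 alone and 25 in DT4 with DT5 alone. The circRNA of GORK (AT5G37500, a potassium efflux channel in guard cells; 374 bp) had 261 and 68.5 units in DT5 and 23.6 and 39.8 in DT4. The circRNA of LTI65 (536 bp) had 81.7 and 164 units in DT5 and 23.6 and 39.8 in DT4. ABI2 (AT5G57050, a phosphatase that restrains ABA signalling) and OST1 (AT4G33950, the kinase that activates the ABA response of guard cells) gave circRNAs listed in DT5 only, at 81.7 and 54.8 units and at 49.0 and 27.4 units. ABF3 (AT4G34000, an ABA-responsive transcription factor) and RAB18 gave circRNAs listed in DT4 only.

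The linear RNAs of 33 of these 36 genes were higher in DT5 and 1 was lower, with a median change of 4.23; 3 were higher in DT2, 10 in DT3 and 34 in DT4. After rescaling the DT3 count was 4. Among all genes 1.47% were called higher in DT2, 14.5% in DT3 (4.83% after rescaling), 48.3% in DT4 and 43.4% in DT5, where 28.1% were lower. Of the 6 hosts, 5 were called higher in DT5, by 2.35 (OST1) to 10.66 (RAB18). The exception was ABF3, with 69.6 and 71.5 TPM in DT5 and 51.3 and 55.7 TPM in WW (change 0.39, SE 0.18, adjusted p = 0.0788); in DT4 it was called higher, by 1.23 (SE 0.18).

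Of 66 nuclear genes of photosynthesis and photorespiration, 11 hosted a single circRNA, while 3.60% of all tested genes did. In the highest bin of mean TPM 7.26% did. The linear RNAs of all 66 were lower in DT4 and in DT5, also after rescaling, with a median change of -3.57 in DT5. Among all genes 16.4% were lower in DT4 and 28.1% in DT5, or 28.3% and 35.1% after rescaling. In DT2 none of the 66 was called, and in DT3 none was higher and 5 were lower, or 29 after rescaling. DT2 listed 8 of the 11 circRNAs, DT3 5, DT4 4 and DT5 2, and WW listed 3. Of all 688 circRNAs DT2 listed 34.7%, DT3 35.6%, DT4 42.7%, DT5 40.8% and WW 39.1%. The circRNA of LHCA4 (AT3G47470, an antenna protein of photosystem I) was the only 1 of the 11 listed in all 5 groups. That of LHCB3 (AT5G54270, an antenna protein of photosystem II; 161 bp) was listed in WW, DT2 and DT3 at 29.6 to 162 units. The circRNA of AT3G60750 (282 bp) was listed in all 4 drought groups at 29.6 to 180 units and not in WW. LHCA1 (AT3G54890, another antenna protein of photosystem I) gave a circRNA listed in DT2 and DT4, and GGT1 (AT1G23310, an aminotransferase of photorespiration) 1 listed in DT2 and DT3.

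The other 6 circRNAs of this list were each in a single group: those of RCA, CA1 and PSAD-1 (AT4G02770, a subunit of photosystem I) in DT2, FBA1 (AT2G21330, a chloroplast aldolase) in DT3, GAPB (AT1G42970, a dehydrogenase of the Calvin cycle) in DT4, and AGT (AT2G13360, an aminotransferase of photorespiration) in WW. Most of these values were 2 to 4 steps. Of 33 genes of splicing and RNA turnover, 2 hosted a single circRNA: SUS2 (AT1G80070, the spliceosome core protein PRP8), listed in DT4 and DT5 at 32.7 to 54.8 units, and MAC3A (AT1G04510, a spliceosome-associated ubiquitin ligase), listed in WW at 28.6 and 30.7 units. The linear RNAs of 22 of the 33 were higher in DT5 and 1 was lower, or 17 and 4 after rescaling. As shares these are 66.7% and 3.03%, or 51.5% and 12.1% after rescaling. For all genes they were 43.4% and 28.1%, or 33.9% and 35.1% after rescaling.

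In the 104 circRNAs tested in DT5 whose host was tested too, circRNA and host changed in the same direction in 71. The Pearson correlation of the changes was 0.55 and the Spearman rho 0.56 over the 104, given without a p because the changes share libraries. The changes of the circRNAs were spread less (SD 0.89) than those of the hosts (SD 1.56), although their median SE was larger, 0.72 against 0.14. The 163 circRNAs listed in WW and not in DT5, and the 175 listed in DT5 and not in WW, are left out here. The circRNA changes are thus cut at the lowest listed values, and those of the hosts are not. The difference between circRNA change and host change was called positive in 8 of the 104 (4.98% of all 201 tested) and negative in 5 (4.48% of all 201).

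**Figure D5:**
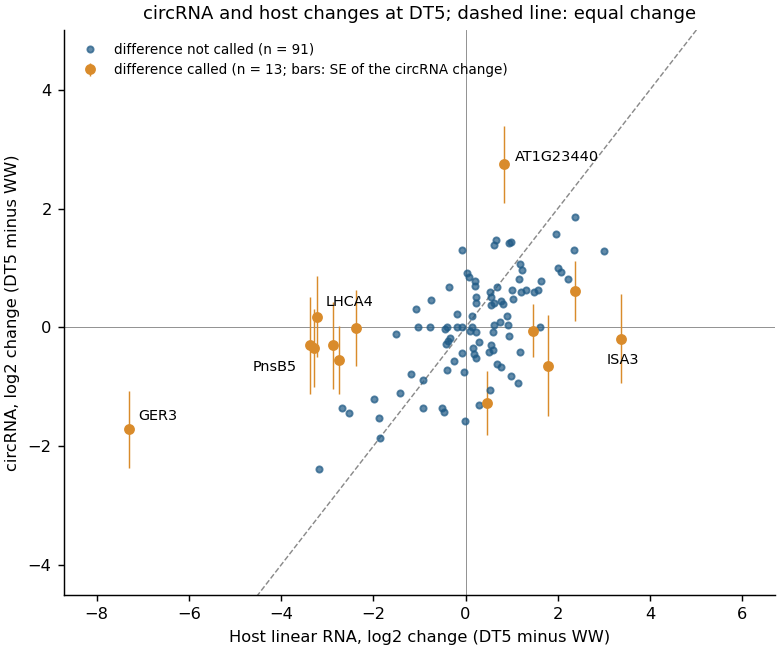
Log2 change of the circRNA (vertical axis) against that of the host's linear RNA (horizontal axis), DT5 minus WW, for 104 circRNAs. Orange dots are the 13 with a called difference, with bars of 1 SE of the circRNA change, and the dashed line marks equal change; GER3 lies at -7.29 and -1.72.

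In 7 of the 8 positive differences the host fell and the circRNA change was between -1.72 and 0.18. The largest was that of GER3 (circRNA at chr5:6975475-6975762, plus strand, 287 bp, exonic). Its linear RNA was 0.20 and 0.38 TPM in DT5 against 196 and 206 TPM in WW, while its circRNA had 65.3 and 54.8 units in DT5 and 157 and 246 units in WW. The difference was 5.58 (SE 0.78, adjusted p = 2.3e-08). Both DT5 values of the host lie below the pseudocount of 1 TPM, and with a pseudocount of 0.1 the difference was 7.33. A circRNA fall as large as that of the host would have ended below the lowest listed DT5 values, 32.7 and 27.4 units. The circRNA would then not have been tested, so the sign of this difference was set by the listing. Every positive difference with a falling host is subject to the same bound on the circRNA. In DT4 the GER3 linear RNA was already 0.79 and 5.4 TPM, and the circRNA had 130 and 92.8 units.

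LHCA4 had the second largest positive difference. Its linear RNA was 873 and 755 TPM in DT5 against 7090 and 8088 TPM in WW. Its circRNA (chr3:17493843-17494109, minus strand, 266 bp, exonic) had 147 and 95.8 units in DT5 against 143 and 76.8 units in WW, so the libraries of both groups overlapped. The difference was 3.40 (SE 0.70, adjusted p = 0.00014). As for GER3, a circRNA fall as large as that of the host would have ended below the lowest listed DT5 values. The circRNA would then not have been tested. In the alternatives for these differences only circRNA libraries were left out, and the linear fit kept all 10 libraries. The differences of GER3 and LHCA4 were called in 7 of 7 alternatives. Each alternative still required listing in both groups, so the alternatives do not bear on this bound.

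The other positive differences were those of PnsB5 (AT5G43750, a subunit of the chloroplast NDH complex; 3.06, SE 0.82), CSLA03 (AT1G23480, a cellulose synthase-like enzyme; 2.94, SE 0.72) and AAS (AT2G20340, aromatic aldehyde synthase; 2.57, SE 0.76). Smaller ones were those of ARAB-1 (AT1G28670, a GDSL-type lipase; 2.36, SE 0.68), OPT7 (AT4G10770, an oligopeptide transporter; 2.198, SE 0.58) and AT1G23440 (1.91, SE 0.67, adjusted p = 0.0497). CSLA03 had 0.86 and 0.56 TPM of linear RNA in DT5 and 13.8 and 17.6 TPM in WW, while its circRNA had 81.7 and 274 units in DT5 and 214 and 169 units in WW; with a pseudocount of 0.1 its difference was 3.955. AT1G23440 differed in kind: its host rose by 0.83 (SE 0.19) and its circRNA by 2.74, from WW values of which 1 was at the floor. Each of these 6 calls was lost without at least 1 library, while each difference kept its sign. Without WW library 2 the difference was 2.767 for CSLA03 (adjusted p = 0.0694), 2.706 for PnsB5 (0.112), 2.529 for AAS (0.112), 1.88 for OPT7 (0.113) and 1.46 for AT1G23440 (0.297). Without WW library 1 it was 1.699 for ARAB-1 (0.256), 2.619 for AAS (0.110) and 2.358 for AT1G23440 (0.0774). Without DT5 library 1 it was 1.846 for PnsB5 (0.249), 1.86 for AAS (0.205) and 2.01 for AT1G23440 (0.0888), and without DT5 library 2 it was 2.066 for CSLA03 (0.182) and 1.807 for AT1G23440 (0.241). After rescaling of the linear libraries and median centring of the circRNA libraries together, CSLA03 (3.315, adjusted p = 0.111) and OPT7 (2.609, 0.108) were not called. With a pseudocount of 0.1 AT1G23440 was not called (1.895, adjusted p = 0.0517).

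In all 5 negative differences the host rose and the circRNA change itself was not called. ISA3 (AT4G09020, an isoamylase that debranches starch during its breakdown) had 91.1 and 94.5 TPM of linear RNA in DT5 and 8.17 and 7.99 TPM in WW. Its circRNA (chr4:5784274-5784712, plus strand, 438 bp, exonic) had 49.0 and 82.1 units in DT5 and 42.9 and 123 units in WW, with the DT5 libraries inside the range of the WW libraries. The difference was -3.56 (SE 0.76, adjusted p = 0.00015). A circRNA rise as large as that of the host, ending at its DT5 values, would have started below the lowest listed WW values. Those were 28.6 and 30.7 units, and the circRNA would then not have been tested. Every negative difference with a rising host is subject to the same bound on the circRNA. The others were STOP1 (AT1G34370, a zinc finger transcription factor of acid and aluminium tolerance; -2.44, SE 0.85), AT4G14270 (-1.76, SE 0.53), AT2G20060 (-1.74, SE 0.55) and AT3G61960 (-1.51, SE 0.47).

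Each of these negative calls was lost without at least 1 library, again with the sign kept. Without WW library 2 none of the 5 was called, although the differences were -2.80 for ISA3 (adjusted p = 0.0844), -2.52 for STOP1 (0.146), -1.84 for AT4G14270 (0.0844), -1.685 for AT2G20060 (0.149) and -1.44 for AT3G61960 (0.140). Without WW library 1 only ISA3 was called, and the other 4 had differences of -2.363 to -1.586 with adjusted p-values of 0.110 to 0.191. STOP1 was also lost without DT5 library 1 (-1.777, adjusted p = 0.267). Without DT5 library 2 the difference was -1.044 for AT4G14270 (0.366), -1.61 for AT2G20060 (0.145) and -0.99 for AT3G61960 (0.306). After rescaling and median centring together none of the 5 was called, at differences of -3.166 to -1.104.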

How the data were processed

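CircRNA and linear RNA were measured in 20 Arabidopsis libraries, 10 of each kind, 2 per group. BWA, RSEM, edgeR and the build TAIR10 are named in the submitters' processing notes without version or role, so the sources used here do not say how circRNAs were called and scaled. The authors deposited circRNA values as a per-library scaled signal, and the linear values are TPM per transcript, per the file headers; TPM keeps no depth. Coordinates and types are as deposited. Host symbols came from RefSeq (TAIR10.1) by locus tag; no sequence was used here. The header of the linear table has 1 cell more than its data, read as a caption. Column numbers were not matched to the letters in the titles, so a library is known only by its group.

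Transcripts were summed to genes (48359 to 27655). Linear RNA was tested with limma 3.58.1 (R 4.3.3) on log2(TPM + 1) for genes with 1 TPM in at least 2 libraries, with a mean-variance trend. CircRNAs were tested with limma on log2 signal, with zeros missing, where listed in both groups. Its prior degrees of freedom were infinite, so each SE rests on the pooled spread. All groups were in 1 fit per assay, p-values were two-sided, and calls are at an adjusted p under 0.05. The difference of circRNA and host change in DT5 used both SEs with Satterthwaite degrees of freedom. Where a library was left out of this difference, it was a circRNA library, and the linear fit kept all 10 libraries. On simulated data, 4-fold changes were recovered in 95.8% (circRNA, 236 tested), 93.2% (linear, 18938 tested) and 95.3% (difference, 201 tested), and unchanged ones were called in 4.24%, 0.0374% and 6.19%. In the circRNA simulation 118 of the 236 were unchanged and all others were raised, with a fixed spread not taken from the data. Adjustment is milder when so many change, so recovery of circRNA changes and differences in the data can be lower. The planned count tests were not run, because the values are not counts. The members and lists were chosen with earlier results of these data known. Named are the 10 with the highest mean, the called ones, the 3 longest and 3 shortest, hosts on the lists, the 5 largest host changes each way in DT5, called differences, and the strongest of each single group; a few others were chosen after their values were seen. Tables were read with pandas 2.3.3, tested with scipy 1.17.1 and drawn with matplotlib 3.10.9 under Python 3.11.15.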

Additional observations from a re-analysis of the deposited data

How the results depend on the processing

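With zeros kept as values (log2 of the signal plus its smallest nonzero value), 130 circRNAs of these hosts were called higher and 159 lower in DT2, 135 and 166 in DT3, 177 and 156 in DT4, and 183 and 174 in DT5, since a group with shared zeros has no spread. With median centring the counts were 0 lower in DT4, and 0 higher and 0 lower in DT5; the cause was not tested. Without a trend 1 was higher in DT4 and 1 in DT5. A library left out gave 0 to 1 lower in DT3, 0 to 1 lower in DT4, and 0 to 2 higher and 0 to 3 lower in DT5; for DT3 that 1 came without library 2 of DT3, and for DT5 the 3 came without library 1 of DT5.

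Host counts in DT2 were 4 higher and 1 lower with no filter, 2 lower with a pseudocount of 0.1, and 3 higher and 8 lower after rescaling. Rescaling gave 50 higher and 71 lower in DT3 and 195 and 223 in DT4. Leaving out a library, which leaves a group with a single one assumed to vary like the rest, gave 1 to 2 higher and 1 to 3 lower in DT2, and 34 to 56 higher and 3 to 9 lower in DT3; in DT4 and DT5 the counts stayed within 1.5 times. For the difference of circRNA and host change, a library left out gave 3 to 7 positive and 0 to 8 negative calls, and rescaling with median centring gave 0 negative ones.

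Equal column numbers did not pair the libraries: deviations from group means correlated at -0.44 to 0.27 in circRNA and -0.16 to 0.07 in linear RNA. With the number as a replicate block, 0 circRNAs were lower in DT4, and 1 was higher and 0 lower in DT5; the 1 is none of those called without the block, whose adjusted p-values became 0.148 for PPL1 in DT4, 0.0533 for PPL1 and AT1G23440 and 0.0752 for EMB2423 in DT5. Under the block 2 hosts were lower in DT2, and 2 differences were positive and 2 negative, of which 3 (GER3, LHCA4 and ISA3) were called without it.

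The signal share difference between drought and WW was -1.61 to -2.83 percentage points without single libraries, -0.43 over the signal of circRNAs with 1 host (exact permutation p = 0.911 against 0.311), and -2.75 as a share of listed circRNAs, where a group gives 1 value and 5 values cannot give a p below 0.2. Without the circRNA of AT4G07390, an alternative chosen after seeing the data, it was -2.59 (exact permutation p = 0.111), and without that of AT5G04090 -4.13 (exact permutation p = 0.0889). Apart from the share of listed circRNAs, these permutations treat the 2 libraries of a group as separate units. Of the 3 called circRNAs, the 13 called differences and the 10 hosts, no value changed direction in these alternatives. DESeq2 and edgeR were not run, because the deposited values are not counts. In simulated data of this size 2-fold circRNA changes were recovered in 56.2% (236 tested) and 4-fold ones in 95.8%. There only 118 of the 236 were unchanged and the spread was fixed, so recovery in the data can be lower. Whether the low steps set the number of calls was not tested.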
